A study of Mus musculus with 7 samples.

Results

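The Hox genes encode homeodomain transcription factors and lie in 4 clusters, Hoxa, Hoxb, Hoxc and Hoxd, in which genes with the same number (paralogs) are close relatives. All 39 symbols made of Hox, a cluster letter and a number were taken from the 24964 genes of the deposited table, and opposite-strand and antisense symbols were left out. They comprise 11 Hoxa genes on chromosome 6, 10 Hoxb genes on chromosome 11, 9 Hoxc genes on chromosome 15 and 9 Hoxd genes on chromosome 2. RNA had been sequenced from whole uterus of mice aged 12 weeks in diestrus, the resting phase of the estrous cycle. The 3 control libraries, numbered 1, 2 and 4, carried the genotype Pgrcre/+, in which Cre recombinase is made from the progesterone receptor gene. The other 4, numbered 1 to 4, carried Pgrcre/+Foxl2LsL/+, the same Cre allele with an allele named Foxl2LsL, and the series title speaks of FOXL2 overexpression. All 7 libraries thus share the heterozygous Cre allele at Pgr, and no group without it was compared. Nothing in the labels says that the libraries came from separate animals, so p-values measure the spread between these libraries.

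Along a cluster, the order of the genes follows the order in which they act from head to tail of the embryo, low numbers in front and high numbers behind. In the Müllerian duct, from which the female tract forms, genes of the high-numbered end are set out in order along the tract. Hoxa9 is assigned to the oviduct, Hoxa10 and Hoxa11 to the uterus and Hoxa13 to the cervix and upper vagina. In the adult, Hoxa10 and Hoxa11 are known from uterine stroma, and females that lack either gene have defects of implantation and decidual change.

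Levels are given as FPKM, fragments scaled to the listed gene length and to the size of the library, so that they can be compared between genes. From 35547587 to 51722417 fragments lay on the listed genes of each library, as recovered from the values. Foxl2 itself, the targeted gene, was at 11.1, 19.3 and 12.9 FPKM in controls 1, 2 and 4 and at 12.7, 14.3, 14.8 and 17.2 FPKM in libraries 1 to 4 labelled Foxl2LsL. The change was 0.06 ± 0.18 (SE) on the log2 scale, with an adjusted p of 0.818 from limma. The table thus shows no rise that would check the labels, and directions are given for the libraries as labelled. Hormone receptor genes were present, with Pgr at 23.8 to 39.01 FPKM and Esr1, the estrogen receptor, at 34.4 to 60.2 FPKM over the libraries. Controls differed among themselves. Control 4 had the most of the stromal marker Pdgfra (38.3 FPKM, against 9.39 and 16.8 in controls 1 and 2) and the least of the epithelial marker Epcam (61.2 FPKM, against 171 and 122). Fat genes also varied, with Adipoq at 9.23 FPKM in control 4 and at 15.2 and 27.3 FPKM in libraries 2 and 3 labelled Foxl2LsL, against 0 to 2.40 FPKM in the other 4 libraries. Control 2 alone had a high level of Ovgp1, an oviduct glycoprotein gene, at 291 FPKM against 1.65 to 19.7 FPKM elsewhere.

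The sequences just before the start of 6 members follow, because these genes carry the results below. Hoxa7, Hoxa9, Hoxa10 and Hoxa11 are consecutive in their cluster and span the place where the direction of change turned, Hoxd10 stands for the Hoxd genes and Hoxc4 for the Hoxc genes. Each run is the 250 bases before a RefSeq transcription start (GRCm38.p6), 5′ to 3′ on the strand of the gene. They lie at chr6:52218574-52218823, chr6:52227371-52227620, chr6:52240855-52241104 and chr6:52245811-52246060 (minus strand), chr2:74691641-74691890 and chr15:103034145-103034394 (plus strand), in the order printed. Capitals mark a match on either strand to a motif searched for.
Hoxa7: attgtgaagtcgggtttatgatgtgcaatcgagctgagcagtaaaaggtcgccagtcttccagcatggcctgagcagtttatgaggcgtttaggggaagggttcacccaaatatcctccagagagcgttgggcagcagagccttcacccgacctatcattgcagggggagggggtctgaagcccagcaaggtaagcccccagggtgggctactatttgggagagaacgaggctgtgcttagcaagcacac
Hoxa9: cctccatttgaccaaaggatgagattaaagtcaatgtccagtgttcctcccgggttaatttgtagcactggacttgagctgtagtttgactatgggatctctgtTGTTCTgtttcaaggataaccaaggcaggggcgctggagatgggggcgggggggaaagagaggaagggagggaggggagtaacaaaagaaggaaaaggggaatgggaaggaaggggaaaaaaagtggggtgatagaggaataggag
Hoxa10: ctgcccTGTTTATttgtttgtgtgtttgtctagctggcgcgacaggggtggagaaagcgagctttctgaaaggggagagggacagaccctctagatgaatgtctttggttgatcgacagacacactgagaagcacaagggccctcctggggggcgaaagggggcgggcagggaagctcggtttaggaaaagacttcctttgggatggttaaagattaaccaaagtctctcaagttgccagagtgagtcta
Hoxa11: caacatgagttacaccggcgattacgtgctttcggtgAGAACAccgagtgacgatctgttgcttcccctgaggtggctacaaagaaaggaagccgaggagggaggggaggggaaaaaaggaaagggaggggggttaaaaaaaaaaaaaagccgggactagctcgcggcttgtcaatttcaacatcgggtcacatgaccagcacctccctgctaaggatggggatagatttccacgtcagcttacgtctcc
Hoxd10: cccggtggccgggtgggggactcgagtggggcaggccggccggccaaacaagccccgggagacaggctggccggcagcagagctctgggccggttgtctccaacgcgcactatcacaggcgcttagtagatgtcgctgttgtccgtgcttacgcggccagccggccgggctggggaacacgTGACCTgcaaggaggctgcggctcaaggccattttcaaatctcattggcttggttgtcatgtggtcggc
Hoxc4: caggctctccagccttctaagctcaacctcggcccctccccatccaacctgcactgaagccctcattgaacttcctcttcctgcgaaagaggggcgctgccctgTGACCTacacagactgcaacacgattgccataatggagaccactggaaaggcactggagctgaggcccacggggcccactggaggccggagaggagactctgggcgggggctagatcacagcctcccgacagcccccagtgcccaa

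The motifs were the forkhead cores GTAAACA and ATAAACA, the nuclear receptor core AGGTCA, the progesterone receptor core AGAACA and the palindromic estrogen response element, whose arms share letters with AGGTCA. Both strands were searched. RefSeq windows were found for 22 of the 39 Hox genes, 24 windows in all. For comparison, 32817 windows of the same length were searched, with a chromosome left out, and these are called all windows. ATAAACA lay in 2 Hox windows (8.33%, against 4.16% of all windows), the printed window of Hoxa10 and that of Hoxb8. Another Hoxa10 window, at chr6:52234940-52235189, had no match to any of the motifs. AGGTCA lay in 6 (25%, against 14% of all windows), those of Hoxb4, Hoxc4, Hoxd3, Hoxd4, Hoxd8 and Hoxd10. AGAACA lay in those of Hoxa9 and Hoxa11 (8.33%, against 16.1%). GTAAACA (3.16% of all windows) and the estrogen response element (0.064%) had no match in these Hox windows. The Hox windows were rich in CpG, with a median of 12.5 CpG in 250 bases against 6 in all windows. Hoxa9, with 3, and Hoxa7, with 7, were among the poorer ones, while Hoxd10 had 20. A match describes letters and is no evidence of binding.

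In control uterus the Hox level was concentrated in 3 stretches, Hoxa9 to Hoxa11, Hoxb2 to Hoxb8 and Hoxd3 to Hoxd11. Hoxa10 was the most abundant member, with a control mean of 77.9 ± 41.1 FPKM (SD, n = 3). Next came Hoxd10 (52.7 ± 10.8 FPKM), Hoxa11 (51.9 ± 28.2), Hoxb6 (47.0 ± 13.7) and Hoxd9 (45.2 ± 10.5), and the ranges of these 5 over the controls overlapped. Hoxc6, at 5.62 ± 2.07 FPKM, was the highest Hoxc gene. In the libraries labelled Foxl2LsL the order was different: Hoxb6 led with 56.8 ± 6.05 FPKM (SD, n = 4), followed by Hoxb7 (32.9 ± 3.76) and Hoxb8 (30.1 ± 2.61), and next came Hoxa10 with 25.4 ± 2.47. Hoxb6 lay above Hoxb7 in all 4 of these libraries without overlap, whereas the ranges of Hoxb7 and Hoxb8, and of Hoxb8 and Hoxa10, overlapped.

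**Figure D1:**
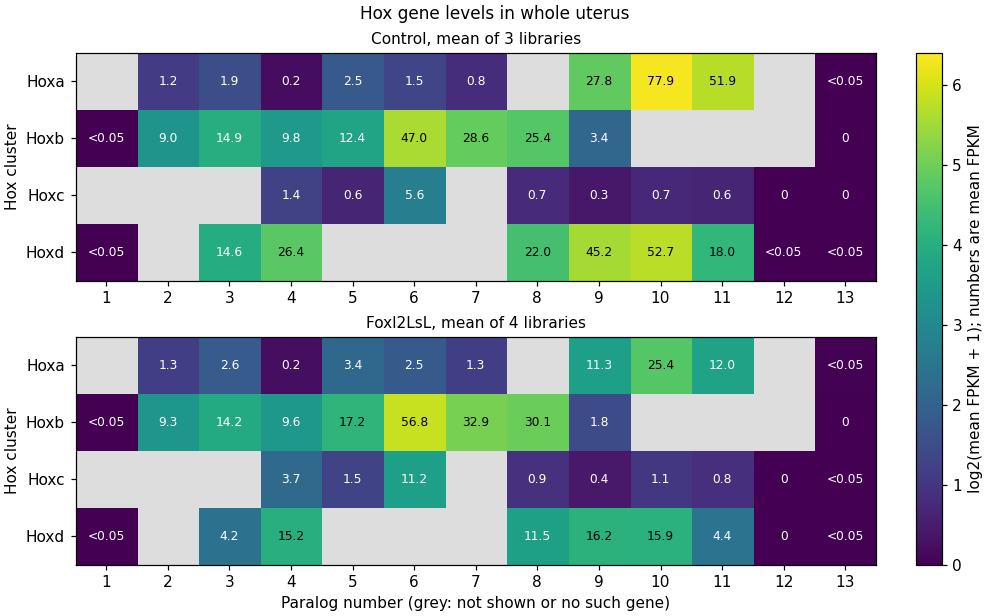
Mean FPKM of 38 Hox genes by cluster (rows) and paralog number (columns) in 3 control libraries (top) and 4 libraries labelled Foxl2LsL (bottom), coloured by log2(mean FPKM + 1). Hoxa9 to Hoxa11 and the Hoxd row are darker (lower) in the bottom panel, where Hoxa10 is at 25.4 FPKM against 77.9 in the top panel, while Hoxb2 to Hoxb8 look alike in both.

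Summed over the 39 genes, the Hox level was 432, 501 and 581 FPKM in controls 1, 2 and 4, and 325, 329.5, 308 and 313 FPKM in libraries 1 to 4 labelled Foxl2LsL. Paralogs 9 to 13 made up 42.6%, 53.2% and 66.1% of it in the controls and 25.7%, 26.8%, 29.2% and 30.5% in the libraries labelled Foxl2LsL. The sum over paralogs 1 to 8 was alike, with means of 226 ± 26.5 FPKM (SD) in 3 controls and 229 ± 13.7 FPKM (SD) in the 4 other libraries. It holds opposite changes. In the libraries labelled Foxl2LsL the means of Hoxd3, Hoxd4 and Hoxd8 were lower and those of Hoxb5 to Hoxb8 and Hoxc4 to Hoxc6 higher. Hoxb genes held 30.9% ± 11.8 of the summed level in controls and 53.9% ± 2.90 in the libraries labelled Foxl2LsL. These sums describe the libraries and were not tested.

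**Figure D2:**
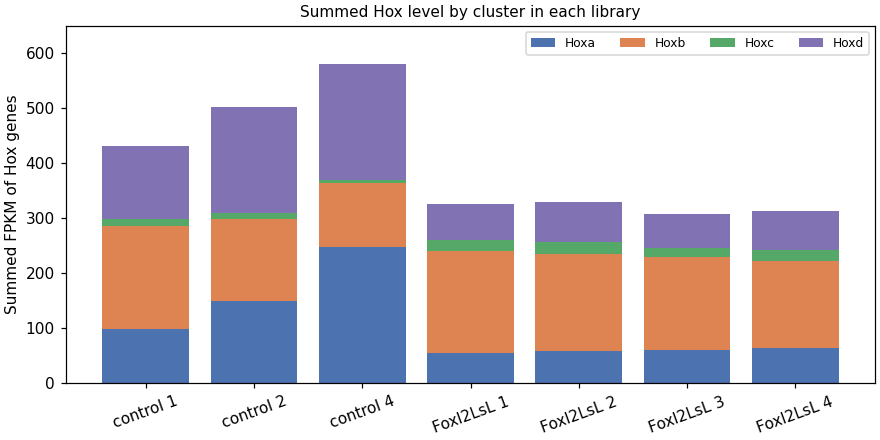
Summed FPKM of the 39 Hox genes in each of the 7 libraries, stacked by cluster. The Hoxa and Hoxd segments are smaller in all 4 libraries labelled Foxl2LsL (Hoxa 55.6 to 64.7 FPKM, against 99.5 to 248 in controls), while the Hoxb segment overlaps between the groups.

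The design asks how the genotypes differ, and 25 of the 39 members had a mean of at least 1 FPKM over the 7 libraries and were tested, with log2(FPKM + 1) as the scale of fold changes unless another is named. On this scale the change of genes near or below 1 FPKM is understated. Of these, 10 fell and 7 rose in the libraries labelled Foxl2LsL at the 0.05 threshold of limma, where p-values were adjusted by Benjamini-Hochberg over all 13334 genes tested. Lower calls thus made up 40% of the tested members against 23.9% of all genes tested, and higher calls 28% against 16.7% (either direction 68% against 40.6%). A fall of 1 or more on the log2 scale was found for 7 members (28%), against 4.16% of all genes tested. The median log2 fold change was 0.05 over the members and -0.05 over all genes. Groups did not overlap for 14 of the 25 members, where 47.6% of all genes tested did not overlap. In bulk tissue fewer cells of a type and less RNA per cell cannot be told apart.

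**Figure D3:**
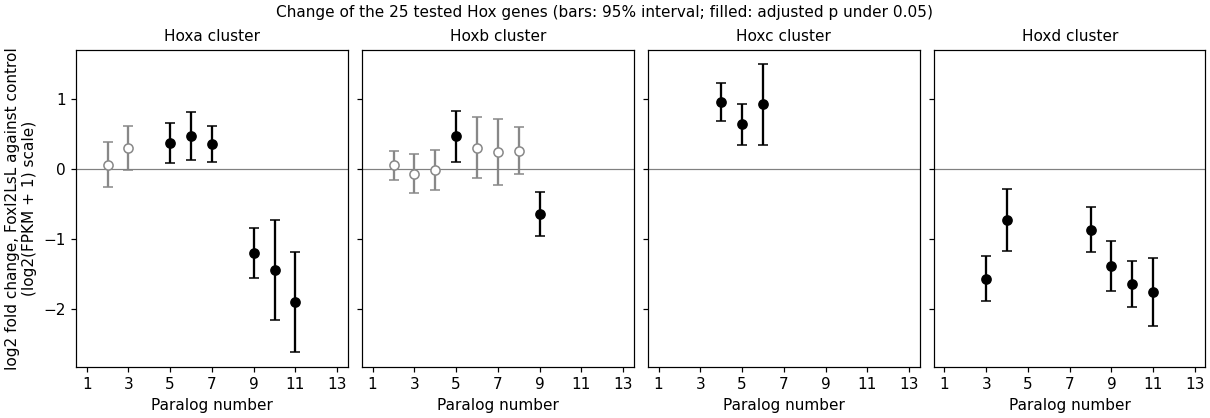
Log2 fold change (log2(FPKM + 1) scale, libraries labelled Foxl2LsL against controls) of the 25 tested Hox genes by paralog number, 1 panel per cluster, with 95% intervals; filled points passed an adjusted p of 0.05. All 7 tested genes with numbers 9 to 11 lie below 0, as do all 6 tested Hoxd genes, while the 3 Hoxc genes lie above it.

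Direction went with position in part and with cluster in part. Every tested member with a number of 9 or higher fell, 7 of 7 (100%, against 23.9% of all genes tested), and these lay in Hoxa, Hoxb and Hoxd. No Hoxc gene with such a number was tested. Below the filter, Hoxc9, Hoxc10 and Hoxc11 had means at 112.8%, 159.5% and 143.6% of the control mean, with overlapping groups. Outside Hoxd, the 13 tested members numbered 3 to 8 held all 7 rises (53.85%, against 16.7% of all genes tested) and no fall. The other 6 did not pass the threshold. The bounds of this range follow the calls themselves, so the count is a description and no test of position. Within Hoxa the turn lay between neighbours, Hoxa7 (log2 fold change 0.36) and Hoxa9 (-1.20). In Hoxb it lay between Hoxb8 (0.26, not past the threshold) and Hoxb9 (-0.65). Hoxd had no such turn, since Hoxd3 and Hoxd4 fell as well.

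Hoxa11, needed for uterine stroma and glands and for implantation, fell. It was at 29.5, 42.7 and 83.5 FPKM in controls 1, 2 and 4 and at 10.4, 10.5, 13.7 and 13.3 FPKM in libraries 1 to 4 labelled Foxl2LsL. All 4 of the latter lay below every control, and their mean was 23.1% of the control mean. On the log2 scale the change was -1.90 ± 0.31 (SE), with an adjusted p of 0.00286 from limma. Without control 4, whose value was the highest, it was -1.50, beside -1.56 for Hoxd3 and -1.52 for Hoxd11.

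Hoxa10, which makes the stroma responsive to progesterone and is required for decidual change, was at 42.0, 69.0 and 123 FPKM in controls 1, 2 and 4. In the libraries labelled Foxl2LsL it was at 22.6, 24.0, 27.2 and 27.8 FPKM, again below every control. Controls spanned 2.92-fold and the other group 1.23-fold. Hoxa10 fell by 1.45 ± 0.31 (SE) on the log2 scale, with an adjusted p of 0.00835 from limma. Without control 4, whose value was the highest, the log2 fold change was -1.06 (limma, adjusted p 0.00464). Hoxa9, the neighbour assigned to the oviduct in the developing tract, was at 20.9, 27.3 and 35.1 FPKM in controls and at 11.2, 11.6, 10.7 and 11.6 FPKM in the libraries labelled Foxl2LsL (-1.20 ± 0.15 SE on the log2 scale; adjusted p 0.00119 from limma). Its 4 lower values lay within 1.09-fold of each other.

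All 6 tested Hoxd genes fell, and Hoxd10, active in limb and spinal cord patterning, had the smallest adjusted p. It was at 41.1, 54.5 and 62.4 FPKM in controls 1, 2 and 4 and at 15.7, 17.1, 14.2 and 16.7 FPKM in libraries 1 to 4 labelled Foxl2LsL, 30.2% of the control mean (-1.65 ± 0.14 SE on the log2 scale; adjusted p 0.000305 from limma). Hoxd11, the paralog of Hoxa11, with which it acts in kidney and limb development, was at 11.7, 17.8 and 24.5 FPKM in controls. In the libraries labelled Foxl2LsL it was at 4.29, 4.63, 3.98 and 4.66 FPKM, 24.4% of the control mean (log2 fold change -1.76). Hoxd9 was at 33.1, 50.6 and 52.0 FPKM against 15.6, 15.7, 16.0 and 17.7 FPKM (-1.40). For all 3 genes the groups did not overlap and the 4 lower values kept within 1.20-fold of each other.

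The fall in Hoxd extended to its low-numbered end. Hoxd3 was at 12.3, 16.8 and 14.7 FPKM in controls and at 3.72, 5.12, 3.58 and 4.54 FPKM in the libraries labelled Foxl2LsL (-1.57 ± 0.14 SE on the log2 scale; adjusted p 0.000341 from limma). Hoxd8 had a log2 fold change of -0.87 (22.0 ± 4.25 to 11.5 ± 1.07 FPKM) and Hoxd4 one of -0.73 (26.4 ± 7.41 to 15.2 ± 2.21 FPKM). The smaller fall of Hoxd4 was also the least firm of the 10. Its values of 18.5, 27.3 and 33.3 FPKM in controls came close to the highest of the other group, 18.1 FPKM, and its adjusted p was 0.0676 without control 2 and 0.0514 without library 3 labelled Foxl2LsL (limma). Hoxd3 and Hoxd4 share exonic bases in GENCODE M21 (9.26% of those of Hoxd3), so reads could be split between them.

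Hoxb9 was the only Hoxb gene to fall, from 3.69, 3.47 and 2.91 FPKM in controls to 1.39, 2.23, 2.08 and 1.502 FPKM (-0.65 ± 0.14 SE on the log2 scale; adjusted p 0.00855 from limma). Within the controls it ran against the other falling genes. The 9 others were lowest in control 1, and Hoxb9 was highest there.

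**Figure D4:**
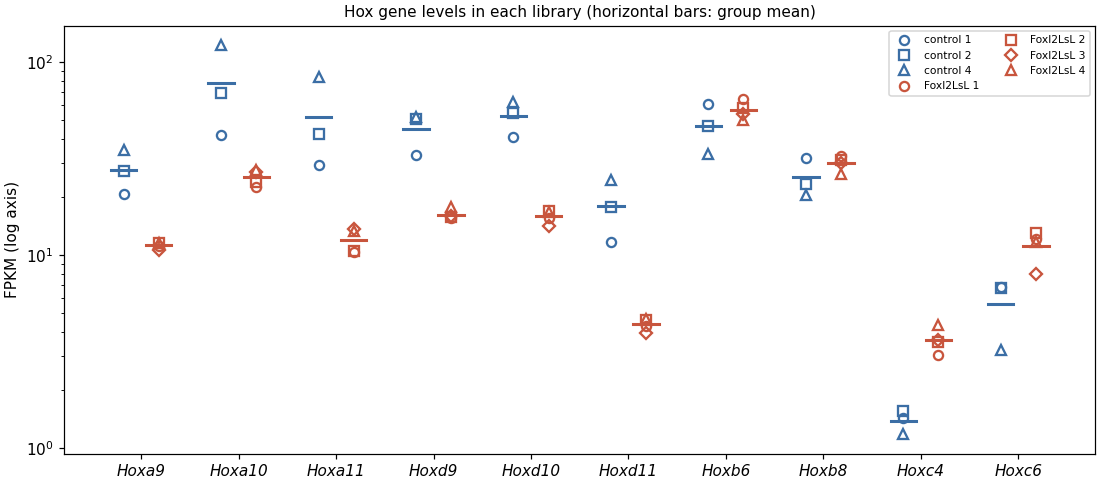
FPKM (log axis) of 10 Hox genes in each library, with horizontal bars at the group means; shapes mark replicate numbers. Hoxa9 to Hoxa11 and Hoxd9 to Hoxd11 are lower in all 4 libraries labelled Foxl2LsL (Hoxa10 22.6 to 27.8 FPKM) than in any control, Hoxb6 and Hoxb8 overlap, and Hoxc4 and Hoxc6 are higher.

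The 3 tested Hoxc genes rose. Hoxc4 was at 1.43, 1.57 and 1.18 FPKM in controls 1, 2 and 4 and at 3.06, 3.58, 3.64 and 4.34 FPKM in libraries 1 to 4 labelled Foxl2LsL, a change of 0.96 ± 0.12 (SE) on the log2 scale with an adjusted p of 0.00104 from limma. Hoxc6, the most abundant of the cluster, was at 6.86, 6.78 and 3.24 FPKM and at 12.1, 13.1, 8.04 and 11.7 FPKM (0.92 ± 0.25 SE on the log2 scale; adjusted p 0.0210 from limma). Hoxc5, at 0.595 ± 0.167 and 1.48 ± 0.239 FPKM, had a log2 fold change of 0.64, which was 1.20 with a pseudocount of 0.1 and 1.33 by limma-voom on recovered fragments. For these genes every library labelled Foxl2LsL lay above every control, with means at 199.7% to 262% of the control mean. Hoxc6 lost its call without library 1, 2 or 4 labelled Foxl2LsL, with adjusted p from 0.0506 to 0.0528 (limma). Hoxc5 and Hoxc10 share some exonic bases in GENCODE M21, so reads between them are uncertain.

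In Hoxa, the genes below the turn were low, at 3.44 FPKM or less in the group means. Hoxa5, at 2.21, 3.11 and 2.08 FPKM in controls and 3.28, 3.62, 3.05 and 3.81 FPKM in the libraries labelled Foxl2LsL, had a log2 fold change of 0.37. Hoxa6 (1.54 ± 0.478 to 2.49 ± 0.374 FPKM) had 0.47 and Hoxa7 (0.796 ± 0.190 to 1.29 ± 0.0850 FPKM) had 0.36. Their adjusted p-values were 0.0485, 0.0385 and 0.0345 (limma), near the threshold. The added 1 shrinks the change of genes this low. Hoxa6 and Hoxa7 were at 162% of their control means, and limma-voom on recovered fragments gave them log2 fold changes of 0.73 and 0.74. With a pseudocount of 0.1 that of Hoxa7 was 0.66. Only for Hoxa7 did the groups not overlap. None of these 3 calls held without control 4, nor did that of Hoxb5, which left 3 rises. Leaving out library 1, 2, 3 or 4 labelled Foxl2LsL left 2, 3, 4 and 2. Hoxa2 (log2 fold change 0.06) and Hoxa3 (0.30, adjusted p 0.113 by limma) did not pass.

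The Hoxb genes from Hoxb2 to Hoxb8, which include the most abundant members of the libraries labelled Foxl2LsL, gave 1 call in 7. Hoxb5 rose from 15.5, 12.5 and 9.27 FPKM to 18.9, 18.03, 16.5 and 15.4 FPKM, with overlapping groups (0.46 ± 0.16 SE on the log2 scale; adjusted p 0.0465 from limma). Hoxb6 was at 60.9, 46.8 and 33.4 FPKM in controls and 64.5, 58.2, 53.8 and 50.5 FPKM in the libraries labelled Foxl2LsL. Its log2 fold change was 0.30 with a 95% interval from -0.13 to 0.74. For Hoxb2, Hoxb3 and Hoxb4 the values were 0.05, -0.07 and -0.01, and their 95% intervals together ran from -0.35 to 0.27, so a change of the size seen in Hoxa9 lies outside them. Hoxb6 and Hoxb8 passed without control 1 (adjusted p 0.0411 and 0.0197; limma). All 7 genes were highest in control 1 and lowest in control 4.

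The other 14 members were below 1 FPKM on average and were not tested. Of these, Hoxa4, Hoxc8, Hoxc9, Hoxc10 and Hoxc11 had at least 10 fragments in every library. Hoxc10 had the highest mean of them over the 7 libraries, with 0.669 ± 0.252 FPKM in controls and 1.07 ± 0.141 FPKM in the libraries labelled Foxl2LsL, with overlapping groups. Hoxc11 stood out for its spread in controls, with 79, 11 and 14 fragments in controls 1, 2 and 4. The numbers 12 and 13, which pattern the caudal end of the body and tract, were near 0. Hoxd12 had 1, 3 and 4 fragments in the controls and 0 in each library labelled Foxl2LsL, and Hoxa13 had 0 to 3 fragments per library. Hoxb13 and Hoxc12 had 0 fragments in all 7 libraries. At a floor of 3 fragments this allows up to 0.0459 FPKM for Hoxb13 and 0.0745 FPKM for Hoxc12. Hoxb1, Hoxc13, Hoxd1 and Hoxd13 had at most 2 fragments in any library.

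Stromal markers are given here because Hoxa10 and Hoxa11 are known from stroma. Within controls, 9 of the 10 falling genes were lowest in control 1 and 7 were highest in control 4, as was Pdgfra. Vim, Col1a1 and the fat gene Adipoq were also lowest in control 1 and highest in control 4, so this order was not particular to stromal markers. Between the groups Pdgfra did not pass the test (adjusted p 0.584 from limma). It was at 12.6, 16.8, 15.7 and 14.6 FPKM in the libraries labelled Foxl2LsL, within the range of the controls (9.39 to 38.3 FPKM). The 5 stromal markers moved apart: Dcn rose (log2 fold change 1.25), Vim fell (-0.56) and Pdgfra, Lum and Col1a1 did not pass. Their summed level was 898 to 1329 FPKM in controls and 1395 to 1590 FPKM in the other group. This sum includes Dcn, at 367 to 467 FPKM in controls and 922 to 1034 FPKM in the other group. None of the other stromal markers was called higher.

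Markers of some other cell types also differed between the groups. Neither the part of these cell types nor that of the stroma in the Hox results was tested. Sums of gland, endothelial, leukocyte and stratified epithelium markers did not overlap between the groups, while those of the other types below did. The counts of called markers stand beside 16.7% higher and 23.9% lower over all genes tested. The 6 smooth muscle markers summed to 827 to 1643 FPKM in controls and 1468 to 1913 FPKM in the libraries labelled Foxl2LsL, with 2 of 6 genes higher. The 5 simple epithelium markers overlapped (528 to 1094 and 864 to 1166 FPKM; 1 of 5 higher). The 2 gland markers, Foxa2 and Cxcl15, both fell (sums of 26.4 to 38.0 against 4.49 to 6.87 FPKM), and the 4 endothelial markers summed to 64.1 to 99.9 against 46.4 to 50.3 FPKM, with 3 of 4 lower. The 5 leukocyte markers summed to 25.7 to 36.6 against 39.5 to 77.1 FPKM, with 2 of 5 higher. Of 3 mesothelial markers 1, Wt1, fell, and their sums overlapped (70.2 to 118 and 37.7 to 91.1 FPKM). Stratified epithelium markers were low (sums of 1.19 to 3.08 in controls and 3.34 to 6.17 FPKM in the other group; the 1 tested, Krt13, rose), and of the 8 ovarian markers Zp2 was at 0 in the controls and Inha alone exceeded 1 FPKM. Oviduct markers summed to 3.73 to 295 FPKM in controls and 9.18 to 15.5 FPKM in the other group, and 1 of 2, Foxj1, fell. The fat genes overlapped too (0.016 to 16.0 and 0.615 to 49.7 FPKM). Without the 3 libraries with Adipoq above 5 FPKM, 9 of the 10 falls held (Hoxd4 had an adjusted p of 0.0530) and 3 of the 7 rises, those of Hoxc4, Hoxc5 and Hoxc6 (limma).

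Non-coding genes inside the clusters were looked at next, with 6 of 11 listed ones tested, 1 higher and 2 lower (50% called, against 40.6% of all genes tested). Hoxa11os, transcribed from the opposite strand of Hoxa11, was at 26.0, 27.6 and 84.0 FPKM in controls 1, 2 and 4 and at 7.34, 8.43, 7.96 and 7.10 FPKM in libraries 1 to 4 labelled Foxl2LsL. It fell by 2.21 ± 0.37 (SE) on the log2 scale, with an adjusted p of 0.00319 from limma. The ratio of Hoxa11os to Hoxa11 was 0.845 ± 0.183 (SD, n = 3) and 0.655 ± 0.122 (SD, n = 4). For the log2 ratio, with 1 added to each FPKM value, the two-sided exact permutation p was 0.229. In GENCODE M21 35% of the exonic bases of Hoxa11 lie opposite Hoxa11os. Since use of strand is not stated, reads from that shared part cannot be assigned to either gene with certainty. Haglr, opposite part of Hoxd3, fell from 3.14 ± 0.287 to 0.947 ± 0.151 FPKM (log2 fold change -1.09). Hoxaas3, opposite parts of Hoxa3 and Hoxa7, rose from 0.706 ± 0.136 to 1.31 ± 0.242 FPKM (0.43). Haglr and Hoxaas3 are open to the same doubt over strand as Hoxa11os, and so are Hoxb2 and Hoxb3, which lie opposite Hoxb3os. The doubt also holds for Hoxd3, Hoxa3 and Hoxa7. Of the exonic bases of Hoxa7, 20.4% lie opposite Hoxaas3. Hoxb3os (-0.20), Hoxb5os (-0.30) and Hotairm1 (0.30) did not pass. Without the 3 libraries with Adipoq above 5 FPKM, Hoxb5os was called lower (-0.78; limma, adjusted p 0.0119). Hotair, in Hoxc, was at 0.027 to 0.298 FPKM, Hottip had at most 4 fragments, Hoxaas2 was at 0.399 to 0.761 and Hoxd3os1 at 0.139 to 0.499 FPKM, and Halr1 was listed at 0 throughout.

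Genes that flank the clusters changed by at most 0.56 on the log2 scale. Of 11 listed, 6 were tested and 3 called (50%, against 40.6% of all genes tested): Hibadh beyond Hoxa (log2 fold change 0.39) and Calcoco1 beyond Hoxc (0.56) rose, Lnpk beyond Hoxd13 fell (-0.34), and Skap2, Smug1 and Mtx2 did not pass.  Evx1 and Evx2, homeobox genes next to Hoxa13 and Hoxd13, had at most 1 fragment in any library.

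HOX proteins bind DNA with partners of the TALE homeodomain class, the PBX, MEIS and PKNOX proteins. All 9 genes were tested, and 3 rose and 4 fell (33.3% and 44.4%, against 16.7% and 23.9% of all genes tested). Meis1 was at 34.7, 28.3 and 17.7 FPKM in controls 1, 2 and 4 and at 54.6, 54.4, 60.4 and 58.9 FPKM in libraries 1 to 4 labelled Foxl2LsL (1.11 ± 0.20 SE on the log2 scale; adjusted p 0.00415 from limma). Meis3 fell from 13.51 ± 2.001 to 7.91 ± 0.540 FPKM (-0.70), and Pbx3 (-0.50), Pbx4 (-0.44) and Pknox1 (-0.38) fell too. Meis2 rose by less than Meis1 (0.35).

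Polycomb proteins keep silent Hox genes silent, and Trithorax proteins with their partners keep active ones active. Among 22 Polycomb genes, 4 rose and 6 fell (18.2% and 27.3%, near the 16.7% and 23.9% of all genes tested), with a median log2 fold change of -0.15. Ezh2, the methyltransferase of dividing cells, fell from 22.7, 18.8 and 11.3 FPKM to 8.50, 7.02, 6.80 and 7.54 FPKM (-1.09), and its paralog Ezh1 rose from 16.8 ± 1.68 to 28.1 ± 1.97 FPKM (0.71). Cbx7 (11.2 ± 2.62 to 24.2 ± 5.65 FPKM, 1.04) and Cbx2 (6.93 ± 2.80 to 2.76 ± 0.342 FPKM, -1.02), which both encode readers of the Polycomb mark, moved apart. Phf1, a partner of the methyltransferase complex, rose from 16.1 ± 2.95 to 31.0 ± 3.40 FPKM (0.91). Of 11 genes on the activating side, 7 fell and none of the other 4 had an unadjusted p under 0.05 in limma, with a median of -0.34 (63.6% lower, against 23.9% of all genes tested). Among the 7 were Dot1l (18.3 ± 1.63 to 10.55 ± 0.329 FPKM, -0.74), Wdr5 (-0.57), Kdm6b (-0.44) and Men1 (-0.40). Kmt2a, the best known activator of Hox genes, was at 10.5 ± 0.916 and 11.5 ± 2.92 FPKM and did not pass.

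Of receptors and signals known to act on uterine Hox genes, 3 of 6 tested were higher and 3 not past the threshold in limma. The 50% called compares with 40.6% of all genes tested, and the count was 1 without control 2 or without library 4 labelled Foxl2LsL. Esr1 rose from 39.8 ± 6.91 to 58.2 ± 2.29 FPKM (log2 fold change 0.55), and the retinoic acid receptor genes Rarg (0.50) and Rara (0.39) rose. Pgr was at 36.5, 39.01 and 24.8 FPKM in controls and at 25.5, 26.5, 25.8 and 23.8 FPKM in the libraries labelled Foxl2LsL, with overlapping groups (log2 fold change -0.36; unadjusted p 0.0406 and adjusted p 0.0845 from limma). Wnt7a, an epithelial signal that maintains Hoxa10 and Hoxa11 in the tract, varied over controls from 77.6 to 6.002 FPKM. It was at 37.6 to 42.5 FPKM in the other group. Vdr was below 1 FPKM.

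Finally, 8 genes reported to lie downstream of HOXA10 or HOXA11 were examined, of which 7 were tested, 1 rose and 2 fell. The 42.9% called is near the 40.6% of all genes tested. Ptger3 and Ptger4 encode prostaglandin E2 receptors of the stroma. Ptger3 fell from 7.89 ± 3.15 to 3.51 ± 0.820 FPKM (log2 fold change -0.94), while Ptger4 rose from 7.04, 7.89 and 13.9 FPKM to 21.2, 18.4, 23.2 and 21.3 FPKM (1.11). Cdkn1c, a cell cycle inhibitor, fell from 19.96 ± 3.72 to 8.70 ± 2.13 FPKM (-1.12). Emx2, which HOXA10 represses, was at 38.5 ± 7.31 and 41.7 ± 2.499 FPKM and did not pass (0.13). Itgb3, an integrin gene, was at 4.29, 11.4 and 8.85 FPKM in controls and 3.81 to 4.79 FPKM in the other group (-0.74; limma, adjusted p 0.0573). Igfbp1 had at most 4 fragments per library, too few to compare.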

How the data were processed

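RNA of whole mouse uterus was extracted with TRIzol and sequenced on Illumina libraries, per the labels' protocols. The authors deposited 1 table of FPKM values, 1 column per library, and a column of gene lengths, per the file headers. Versions and build named in the submitters' processing notes are STAR 2.5.2b, featureCounts 1.5.0-p1 (Subread), DESeq2 1.12.4 and the build mm10, with no role or order. The annotation, use of strand and filters are not given in the sources used here.

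Groups came from the labels, and columns were matched by sample description. The product of FPKM and length moved in whole steps in each library, to within 0.1 of a step for 100% of the low values used, and this gave fragments and denominators of 47800000 to 67300000. These cover counting error only. Genes whose FPKM averaged 1 or more were compared on log2(FPKM + 1) with limma 3.58.1 in R 4.3.3 (lmFit, eBayes with intensity trend) and Benjamini-Hochberg adjustment over 13334 genes, threshold 0.05. Exact permutation tests used all 35 splits, whose smallest two-sided p is 0.0571. The fit was tested on simulated data. Promoter sequences are from RefSeq (GRCm38.p6), and exon overlaps from GENCODE M21 (GRCm38). Both groups have libraries numbered 1, 2 and 4, without a stated pairing, so no block was used.

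Values of 1 member below the filter and of 1 listed gene are not reported here. The members and gene lists were chosen with earlier results of these data known. Every Hox gene past the filter was named, and from each list the called members with the largest changes (at most 4), beside genes of the Hox loci, Foxl2, Esr1 and Pgr; other list members named, such as Ezh1, Kmt2a, Wnt7a, Emx2 and Itgb3, were chosen after their values were seen. Of 18 alternatives, 1, leaving out the 3 libraries with Adipoq above 5 FPKM, was chosen after seeing the data. Figures used Python 3.11.15 and matplotlib 3.10.9.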

Additional observations from a re-analysis of the deposited data

How the results depend on the processing

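Over 18 alternatives, 9 of the 10 falling Hox genes kept direction and call in every fit they entered; Hoxd4 lost its call in 4. Of the 7 rising genes, Hoxc4 and Hoxc5 kept theirs. No called Hox gene changed sign. Against 10, the count of lower Hox genes ranged from 9 to 10 when 1 library was left out. Against 7, the count of higher Hox genes ranged from 2 to 6 there. A minimum mean of 5 FPKM, where fewer genes are tested, gave 2, and the count was 3 without a filter, and 3 without the 3 libraries with Adipoq above 5 FPKM. The count over all genes ranged from 3853 to 5328 when 1 library was left out. Of the lists, the regulators of uterine Hox genes gave 1 call without a filter and 1 to 4 when 1 library was left out, against 3, and the non-coding genes gave 1 at the minimum of 5 FPKM, against 3. The activating chromatin genes, against 7, gave 5 calls with quantile normalization, with median centring and without a filter. They gave 5 to 7 when 1 library was left out. Why these counts moved (the cause) was not tested.

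With a replicate block on the numbers 1, 2 and 4, 3243 genes passed against 5409, with 10 Hox genes lower and 4 higher, and the activating chromatin genes gave 3 calls against 7 and the flanking genes 1 against 3. Without the block, those 6 libraries gave 3975. For numbers 1, 2 and 4, deviations of libraries sharing a number correlated at 0.228, -0.0306 and -0.112. So few values cannot decide whether the numbers pair the libraries.

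Some genes near no change crossed 0, with no call. Hoxb4 (-0.01 as reported) was at 0.038 with quantile normalization, 0.037 with median centring and 0.0035 with the replicate block. When 1 library was left out, Hoxb4 ran from -0.13 to 0.047, Hoxb3 from -0.13 to 0.025, Hoxb2 from -0.019 to 0.13, Hoxb7 from -0.014 to 0.45, Hoxa2 from -0.023 to 0.15 and Foxl2 from -0.10 to 0.28. Without the libraries with Adipoq above 5 FPKM, Hoxa2 was at -0.014 and Hoxb2 at -0.0019.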
